A study of Homo sapiens with 12 samples.

Results

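Starts of 10 genes that drive growth or cell division in breast cancer were examined for acetylation (H3K9ac) and dimethylation (H3K9me2) of lysine 9 of histone H3. The genes were MYC, ETS1, EGFR, CCND1, E2F1, CCNA2, CDK1, CCNB1, PLK1 and MKI67. Each was taken as a window of 5 kb either side of its hg19 start. They were 10 of 303411 windows of 10 kb over the genome. For H3K9ac 17328 windows were tested, and 9 of the 10 starts were among them. The treated group received DETA/NO, which releases nitric oxide slowly, at 500 µM for 24 h, and the other group was left untreated. Both were cultures of MDA-MB-231, an established line from a human breast adenocarcinoma of the triple negative type. Serum was withdrawn overnight before treatment, per the labels' protocols. Each mark had 2 biological replicates per condition, and all libraries came from the same single line. The deposited lists hold called intervals, so a value here is where a mark was called, not how many reads lay there, and the depth is unknown. Marker genes of other cell types were not analysed here.

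H3K9ac is found at the starts of active genes, flanking the nucleosome-poor stretch where transcription begins, and H3K9me2 covers silent domains. Growth factor receptors such as EGFR signal to transcription factors such as MYC and ETS1 and to cyclin D1 (CCND1), which opens the way from G1 into S phase by releasing E2F1 from the retinoblastoma protein. Cyclin A2 (CCNA2), CDK1, cyclin B1 (CCNB1) and PLK1 then act from S phase to mitosis. Their promoters are known for CCAAT boxes bound by NF-Y and for the cell cycle homology region (CHR) bound by the MuvB complexes. MKI67 encodes Ki-67, the antigen used to count dividing cells in tumours.

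The 250 bases before the start are shown for EGFR, the one gene called for a change in H3K9ac, and for the 4 genes of S to M phase. H3K9ac peaks of these 4 had a break near the start in at least 1 library each, as had those of the other starts with H3K9ac. The sequences shown are from RefSeq on GRCh38.p14, 5′ to 3′ on the strand of the gene, and the table held 7 of the 10 genes. MYC, ETS1 and CCND1 had no entry. For EGFR and CDK1 the table lists 2 starts each, and the one farther upstream was used. The starts in this table and the hg19 starts of the windows need not be the same base. Capitals mark the GC box GGGCGG, the CCAAT box CCAAT, the CHR element TTTGAA, the E2F sites TTCCCGC and TTGGCGC and the E-box CACGTG, searched on both strands.
EGFR, chr7:55018767-55019016, plus strand.
EGFR: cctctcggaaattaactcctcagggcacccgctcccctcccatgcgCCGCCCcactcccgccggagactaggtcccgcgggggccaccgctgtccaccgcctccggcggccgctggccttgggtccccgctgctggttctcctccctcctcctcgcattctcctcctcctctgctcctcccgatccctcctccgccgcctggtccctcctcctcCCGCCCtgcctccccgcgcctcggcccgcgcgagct
CCNA2, chr4:121823884-121824133, minus strand.
CCNA2: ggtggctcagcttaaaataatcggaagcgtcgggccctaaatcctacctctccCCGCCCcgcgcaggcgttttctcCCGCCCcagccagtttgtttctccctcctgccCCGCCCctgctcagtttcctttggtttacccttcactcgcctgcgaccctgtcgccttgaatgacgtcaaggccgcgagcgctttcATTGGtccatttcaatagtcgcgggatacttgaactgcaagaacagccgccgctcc
CDK1, chr10:60778081-60778330, plus strand.
CDK1: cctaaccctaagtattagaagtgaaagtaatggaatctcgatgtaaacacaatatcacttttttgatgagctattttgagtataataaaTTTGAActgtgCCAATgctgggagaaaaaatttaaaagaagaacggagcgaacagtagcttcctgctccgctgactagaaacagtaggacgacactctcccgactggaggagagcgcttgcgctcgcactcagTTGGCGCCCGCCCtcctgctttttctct
CCNB1, chr5:69166900-69167149, plus strand.
CCNB1: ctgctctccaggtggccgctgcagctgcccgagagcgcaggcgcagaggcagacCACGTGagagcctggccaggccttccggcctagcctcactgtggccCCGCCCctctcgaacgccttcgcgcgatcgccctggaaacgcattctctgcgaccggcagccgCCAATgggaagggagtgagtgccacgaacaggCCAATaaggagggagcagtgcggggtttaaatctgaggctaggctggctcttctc
PLK1, chr16:23678639-23678888, plus strand.
PLK1: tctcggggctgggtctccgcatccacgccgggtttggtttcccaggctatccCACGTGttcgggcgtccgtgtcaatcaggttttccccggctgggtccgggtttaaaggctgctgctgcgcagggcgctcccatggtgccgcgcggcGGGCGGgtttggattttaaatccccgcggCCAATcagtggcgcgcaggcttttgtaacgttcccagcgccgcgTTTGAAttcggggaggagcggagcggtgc

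The CCAAT box was present in 6 of the 7 genes with a sequence, in all but EGFR, and in 32% of the 35116 promoters of the table. PLK1 carried 1 CCAAT box at 73 bases and 1 CHR element at 29 bases before the start. CCNB1 had 2 CCAAT boxes, at 87 and 55 bases before its start. The CHR letters were found in CDK1, PLK1 and MKI67, 3 of 7, and in 13.3% of all promoters. Only these exact letters were searched, so the count does not show that CCNA2 and CCNB1 lack the element. GC boxes were found in all 7 and in 42.6% of all promoters. These shares were not adjusted for GC content, which ran from 44.4% in CDK1 to 73.6% in EGFR. The median over all promoters was 58%, and only CDK1 lay below it. The E2F letters TTGGCGC were found in CDK1 and in E2F1 itself, whose product binds such sites, and in 2.56% of all promoters, and TTCCCGC in none of the 7 and in 5.52%. The E-box stood in CCNB1 and PLK1 and in 6.34% of all promoters. In the sequences printed no motif overlapped another, and in CDK1 the E2F site and the GC box were adjacent. In MKI67, not printed, a CCAAT box overlapped both a CHR element and a GC box.

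H3K9ac was called somewhere in the window of 9 of the 10 starts in every library. At 8 of these 9 it covered more of the window in both treated than in both untreated libraries. The exception was E2F1. ETS1 had no peak in its window in any library. Over the 9 starts the median difference, treated minus untreated, was 1161 bp of the window. Over all 17328 windows tested, which lay on a fixed grid apart from the starts, it was 926.5 bp. With windows centred instead on regions shared by both reproducible sets, the starts included, it was 1157.5 bp, close to that of the starts. As a ratio of treated to untreated coverage the 9 starts stood below the windows tested, with medians of 1.77 and 1.84. The complete order, both treated above both untreated, was found in 80.7% of the windows tested and in 9808 of 11388 centred windows. So 8 of 9 is near the background. The windows tested entered by their mean share over all 4 libraries, to which the treated libraries contribute. Without that filter, over 130052 windows with a peak, the order held in 15.6% and the median difference was -107 bp. The opposite order was found at 0 of the 9 and in 0.427% of the windows tested. By limma on the covered share, 1 of the 9 was called higher (EGFR) and 0 lower at a Benjamini-Hochberg adjusted p under 0.05. Over all windows tested 19.1% were called higher and 0.162% lower. The limma count for the 9 moved with the fit. It was 3 with the centred windows, where 33.6% of all windows were called higher. All 9 starts were kept in that fit, and PLK1, 1 of the 3, has no untreated region in its window. It was 6 with the replicate number as a block, where 57% were. At an unadjusted p under 0.05 there were 4 of the 9 starts, against 43.7% of all windows in either direction. For single starts, 2 libraries against 2 allow no exact two-sided permutation p below 0.333.

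**Figure D1:**
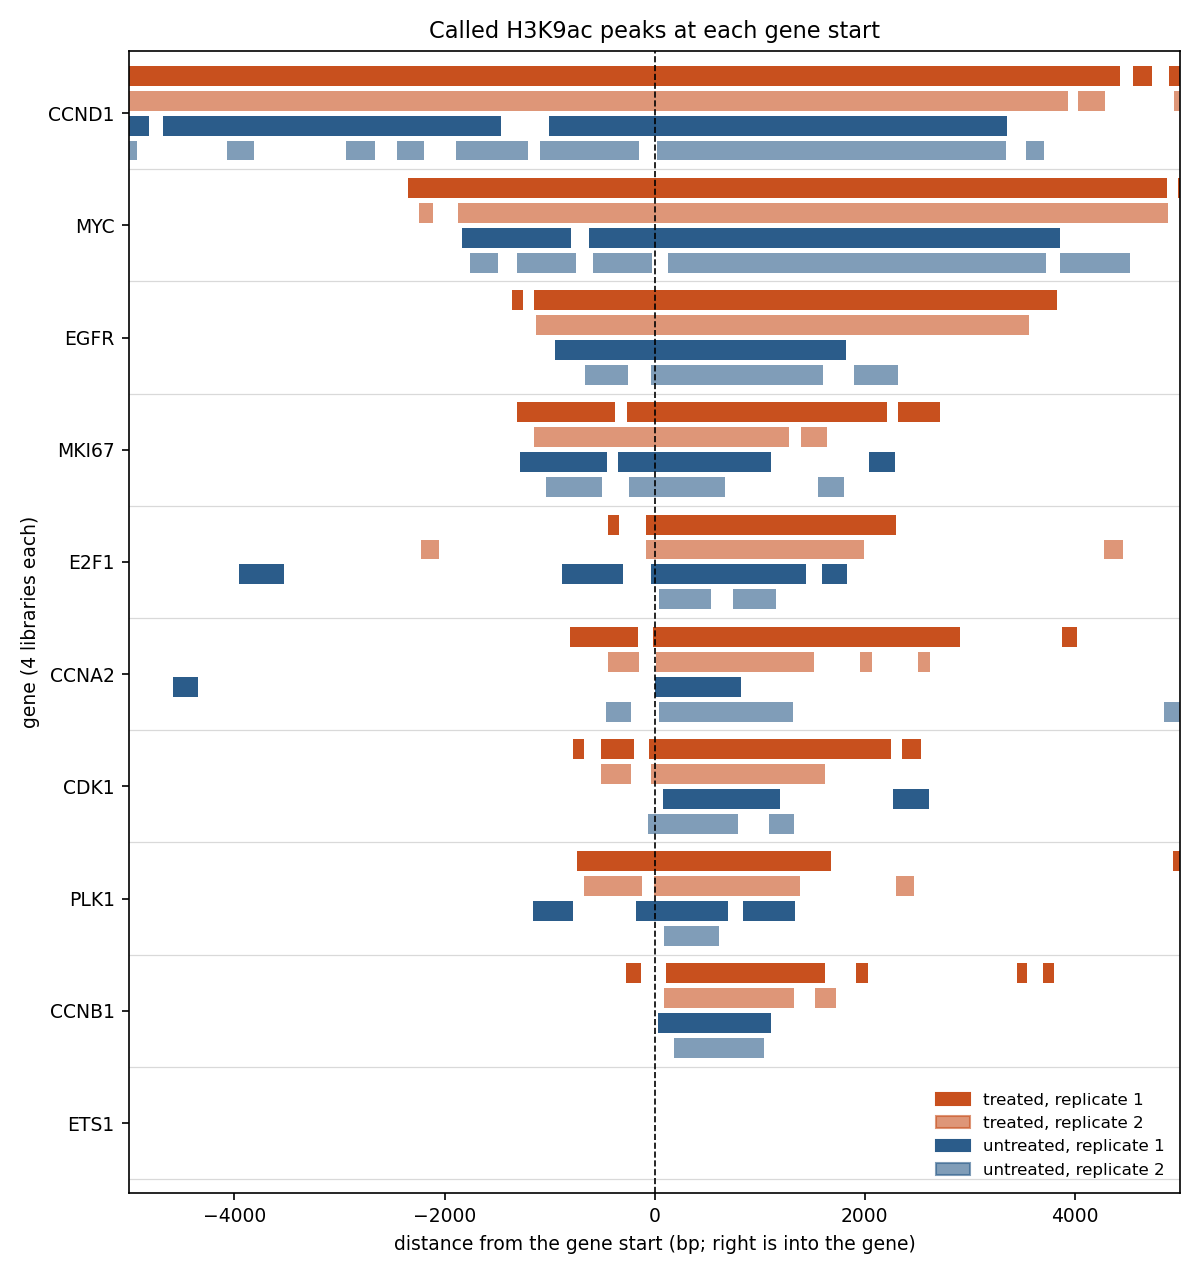
Called H3K9ac peaks (bars) in the 4 libraries at each of the 10 gene starts; the horizontal axis is the distance from the start in bp, with the direction into the gene to the right, and bars end at the 5 kb limits. Treated libraries are in orange above the untreated ones in blue, and ETS1 has no bar in any library.

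The libraries differed in how much of the genome they covered. H3K9ac peaks covered 52.1 and 37.8 Mb in the treated libraries and 48.3 and 22.8 Mb in the untreated libraries, replicates 1 and 2. The median over the windows tested was 2188 and 1661 bp in the treated libraries and 1235 and 796 bp in the untreated libraries. The part of these totals in the differences at the gene starts was not tested. Quantile normalization, which gives all libraries the same distribution over the windows tested, moved the median difference of all windows on the arcsine scale to -0.00659, against 0.144 without it. The median over the 9 starts was -0.0133 with it and 0.154 without it. With it 4 of the 9 starts kept a positive difference, those of EGFR, CCNA2, CDK1 and PLK1. The same 4 lay above the median of all windows. MYC, CCND1, E2F1, CCNB1 and MKI67 turned negative. The method puts the median of all windows near 0, so a negative sign here does not mean fewer covered bases. The share of all windows that kept a positive difference was not computed. By limma 0 of the 9 were called in either direction, nor did any reach an unadjusted p under 0.05. In that fit 2742 of 17328 windows had an unadjusted p under 0.05, and limma called 1.2% of all windows higher.

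**Figure D2:**
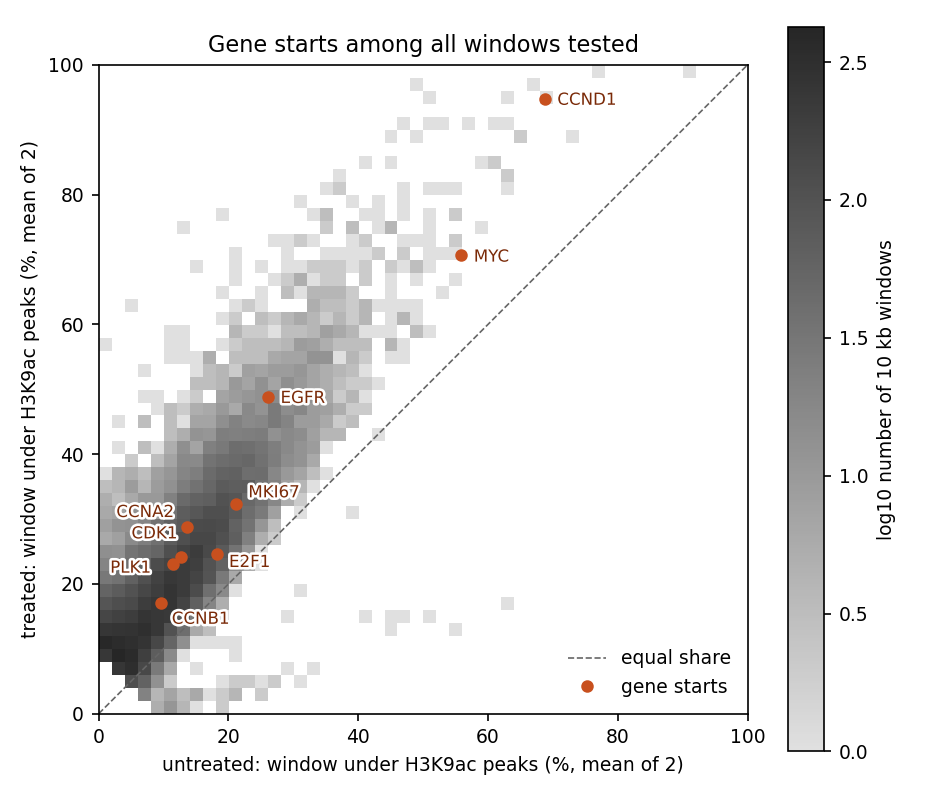
Share of each 10 kb window under H3K9ac peaks (%), as the mean of the 2 treated libraries (vertical axis) against the mean of the 2 untreated libraries (horizontal axis). Grey squares count all 17328 windows tested on a log10 scale, and orange points are the 9 gene starts with H3K9ac. They lie above the line of equal shares within the grey cloud, except that CCND1 and MYC stand in squares with no other window.

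CCND1, MYC and EGFR had the highest mean coverage of the 10 starts in each condition, and ETS1 the lowest. CCND1, which encodes cyclin D1, had 9713 and 9251 bp covered in the treated libraries, against 7764 and 5989 bp in the untreated libraries, replicates 1 and 2 in that order here and below. Both treated values exceeded both untreated ones. Means were 9482 bp ± 327 in treated and 6877 bp ± 1255 in untreated cells (SD, n = 2), and limma did not call the difference (adjusted p = 0.133). In treated cells the authors' reproducible set, made from both libraries, joined it into 1 region of 9548 bp at chr11:69450756-69460303, wider than 99.9% of that set. In untreated cells the set had 2 regions there, of 3473 and 4439 bp. The window itself was nearly full in treated cells, at 97.1% and 92.5%, which limits the difference that could be seen. In mean coverage over the 4 libraries the CCND1 window stood above 99.98% of all windows tested.

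MYC, the transcription factor that raises the output of many growth genes, had 7238 and 6891 bp covered in treated cells. In untreated cells it had 5519 and 5660 bp. The treated libraries were both higher, but the difference was not called (limma, adjusted p = 0.27). Its peaks in treated replicate 1 and 2 reached 7222 and 6754 bp in one piece, whereas the widest untreated ones were 4486 and 3600 bp. Untreated replicate 2 had 5 separate peaks there. The reproducible region of treated cells ran from 2347 bp before to 4886 bp after the start, and the 2 regions of untreated cells ended at 3858 bp. In the RefSeq order of genes its neighbours are CASC11 and PVT1, and the window was not divided among them.

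EGFR, the receptor tyrosine kinase whose abundance is typical of basal-like breast cancer lines, was the one start called by limma. Its window had 5074 and 4698 bp under H3K9ac peaks in treated cells and 2766 and 2454 bp in untreated cells. The groups were far apart relative to their spread, with means of 4886 bp ± 266 in treated and 2610 bp ± 221 in untreated cells (SD, n = 2). The difference was 0.24 on the arcsine scale with a standard error of 0.08 (limma, adjusted p = 0.0383), and 94.6% of all windows tested had a smaller difference in bp. The call was lost without any 1 of the 4 libraries, with adjusted p-values of 0.517 and 0.197 without treated replicate 1 or 2 and of 0.092 and 0.293 without untreated replicate 1 or 2. Over all alternatives its adjusted p ran from 0.00141 to 0.663. The gain lay inside the gene: of 1520 bp under peaks in both treated and neither untreated library, 1336 bp lay after the start and 184 bp before it. The reproducible region was chr7:55085581-55090555 in treated cells, 4975 bp wide, and chr7:55085779-55088544 in untreated cells, 2766 bp wide.

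ETS1, an ETS family transcription factor linked to invasion, had 0 bp under H3K9ac peaks at this start in all 4 libraries. The nearest peak was 38402 and 20294 bp away, inside the gene, in treated cells. In untreated cells it was 16663 and 5041 bp away, before the start, the last of these just outside the window and narrow, at 278 bp. ETS1 has further starts inside the gene, and regions there were looked at after its empty window had been seen. In the 100 kb into the gene the treated set had 4 reproducible regions, 9948 bp in all, and the untreated set 3, with 3443 bp. The widest in treated cells, 5891 bp at chr11:128388593-128394483, spanned 2 of the 3 untreated ones, of 537 and 2308 bp, which began 64295 and 65122 bp from the start. With its own window at 0, ETS1 did not enter the fit, and the 9 others passed its filter of a mean share of 5%. Each of these 9 also had at least 5% in untreated cells alone, the least being 9.66% for CCNB1.

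**Figure D3:**
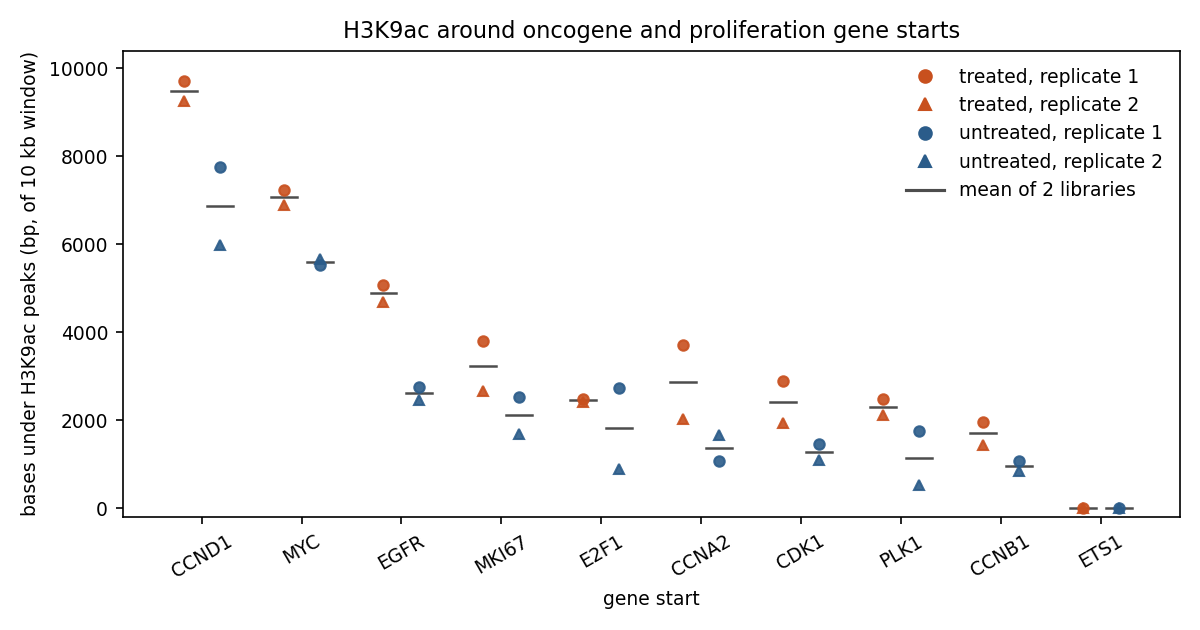
Bases under H3K9ac peaks (bp) in the window of 10 kb at each gene start, 1 point per library, treated in orange left of untreated in blue, with lines at the means of 2 libraries. The groups are apart at 8 starts, overlap at E2F1 and are all at 0 at ETS1.

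E2F1, the transcription factor that switches on S phase genes, had 2483 and 2426 bp covered in treated cells. In untreated cells it had 2729 and 903 bp. The treated values were close to each other and lay between the untreated ones, so the groups overlapped (limma, adjusted p = 0.304), and without untreated replicate 2 the difference turned negative, at -0.03 on the arcsine scale. Without untreated replicate 1 it was 0.21 and was called (limma, adjusted p = 0.0284). Untreated replicate 1 held 1048 bp before the start, of which 583 and 429 bp were in 2 separate peaks, and the treated libraries held 188 and 248 bp there. Inside the gene the order was complete, with 2294 and 2177 bp in treated and 1680 and 903 bp in untreated cells.

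The genes of S to M phase had less H3K9ac than CCND1, MYC and EGFR, and it lay mainly inside the gene. Neither trait was particular to them. E2F1 and MKI67 also had less than CCND1, MYC and EGFR. At MYC, EGFR, E2F1 and MKI67 too more bases lay after than before the start in the mean of each condition. CCNA2, whose cyclin is needed in S phase and at entry to mitosis, had 3707 and 2035 bp covered in treated and 1064 and 1664 bp in untreated cells. The 2 treated libraries were 1672 bp apart, more than the 1507 bp between the means (limma, adjusted p = 0.0647). CDK1, the kinase that drives mitosis, had 2889 and 1938 bp in treated and 1456 and 1096 bp in untreated cells (adjusted p = 0.0946). CCNB1, its cyclin partner, had 1971 and 1443 bp in treated and 1077 and 856 bp in untreated cells (adjusted p = 0.169). At all of these the treated libraries lay above the untreated ones without a call by limma.

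PLK1, a kinase of mitotic entry and spindle assembly, was the one start that the reproducible sets told apart. A treated region of 2412 bp lay over it at chr16:23689464-23691875, and no untreated region lay in the window. In 27.8% of all windows tested a treated but no untreated region was present, so this is common, and the reverse was found at 0 of the 10 starts and in 0.646% of windows. Peaks were nonetheless called there in both untreated libraries. PLK1 had 2480 and 2125 bp covered in treated cells and 1753 and 530 bp in untreated cells (limma, adjusted p = 0.0782). The difference was 0.17 on the arcsine scale. Without untreated replicate 1 it was 0.27 and was called (limma, adjusted p = 0.00289), and without untreated replicate 2 it was 0.07 (adjusted p = 0.595).

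MKI67, the proliferation marker, had 3807 and 2671 bp covered in treated cells. In untreated cells it had 2533 and 1696 bp. Treated replicate 2 and untreated replicate 1 were only 138 bp apart, and the difference was not called (limma, adjusted p = 0.16). The treated set joined 2 untreated regions, of 1461 and 830 bp, into 1 region of 3517 bp at chr10:129922260-129925776. In treated replicate 1 itself the peaks there were still separate, with a gap of 112 bp. Only in treated replicate 2 did 1 peak, of 2424 bp, run through.

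In bases after the start, the treated libraries were both above the untreated pair at 9 of 9 starts, and in bases before the start at 6 of 9, without E2F1, CCNB1 and MKI67. The mean difference was larger after than before the start at 8 of 9. The same count over other gene starts was not made, since hg19 gene starts were not used here, so there is no background for a side of the start. Summed over the starts, 69.6% and 68% of the covered bases lay after the start in treated cells and 62.3% and 74.1% in untreated cells. The share after the start therefore did not separate the conditions, and untreated replicate 2 had the highest. At 1500 bp into the gene 9 and 7 of the 10 starts were under a peak in treated cells and 3 and 3 in untreated cells. At 500 bp it was 9 of 10 in every library. At 1000 bp it was 9 and 9 in treated and 8 and 6 in untreated cells, at 2000 bp 8 and 4 in treated and 2 and 3 in untreated cells, and at 3000 bp 3 and 3 in treated and 2 and 2 in untreated cells. The contrast was largest at 1500 bp among these positions, which were read after the data were seen and have no background. CCND1 was the exception in where the mark lay, with as much or more before as after the start in 3 of the 4 libraries.

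**Figure D4:**
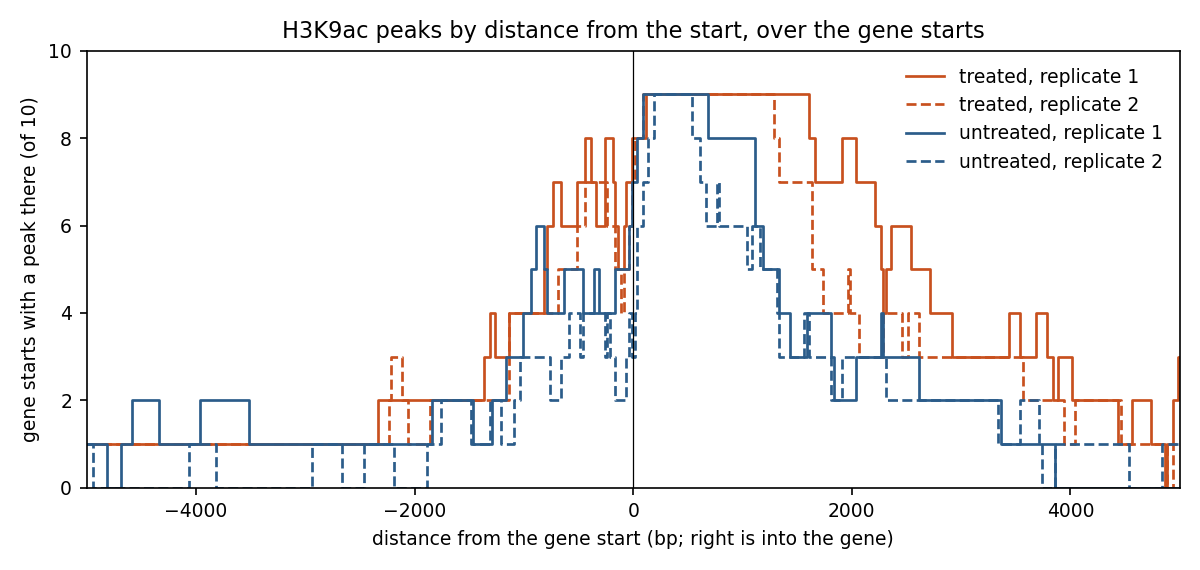
Number of the 10 gene starts with an H3K9ac peak at each distance from the start (bp, right is into the gene), 1 line per library, treated in orange and untreated in blue, replicate 2 dashed. All lines reach 9 at 500 bp, and at 1500 bp the treated lines stand at 9 and 7 and the untreated lines at 3 and 3.

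The widest peak in the window was wider in both treated than in both untreated libraries at 9 of the 9 starts, and in 84.3% of all windows tested. The opposite order was found at 0 of the 9 and in 0.439% of windows. Its median over the 9 starts was 2476 and 2077 bp in treated and 1461 and 911 bp in untreated cells. Over all windows tested these medians were 2015 and 1532 bp in treated and 934 and 619 bp in untreated cells. The base of the start itself was under a peak at 8 and 7 of the 10 starts in treated cells and at 7 and 3 in untreated cells. Untreated replicate 2 was the low one, and it covered the least of the genome.

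At several starts a short stretch near the start had no peak although peaks lay on both sides. At CDK1 this gap was 148 and 197 bp wide in the treated libraries, reaching to 51 and 33 bp before the start. At CCNA2 it was 139 and 162 bp in the treated libraries, the first of these from 158 to 20 bp before the start. CCNA2 had a gap of 265 bp in untreated replicate 2. CCNB1 had one of 238 bp in treated replicate 1, from 126 bp before to 111 bp after the start, and PLK1 had gaps of 115 bp in treated replicate 2 and 602 bp in untreated replicate 1. Such gaps were not limited to these 4 genes or to treated libraries. E2F1 had gaps of 258 bp in treated replicate 1 and 265 bp in untreated replicate 1, and MKI67 of 112 bp in treated replicate 1 and 260 bp in untreated replicate 2. At MYC, EGFR and CCND1 the treated peaks ran through the start, and only untreated replicate 2 was broken there, by 148, 226 and 172 bp. The printed sequences hold the CCAAT boxes of the 4 cell cycle genes within 150 bases before the start. Whether a gap covers them cannot be read from positions on different builds.

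All 9 starts had bases under peaks in both treated and neither untreated library, from 318 bp at CCNB1 to 1520 bp at EGFR, with a median of 573 bp. None of the 9 had a base under peaks in both untreated and neither treated library. Over all windows tested the medians were 442 and 0 bp, and 95% of windows had more of the first kind than of the second. Bases in all 4 libraries ran from 530 bp at PLK1 to 5473 bp at CCND1, with a median of 903 bp against 612 bp over all windows.

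The reproducible sets placed a region over the start at 8 of the 10 genes in treated and at 7 in untreated cells. PLK1 made the difference. CCNB1 had a region in both sets that began after the start, at 91 bp in treated and 32 bp in untreated cells. When peaks of both libraries had to lie over the start, the counts were 7 in treated and 2 in untreated cells. A region anywhere in the window was present at 9 of the 10 starts in treated and at 8 in untreated cells. By that measure 95.3% of the windows tested held a treated and 68.2% an untreated reproducible region. For a region over a single base there is no background.

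H3K9me2, the silencing mark, was called in none of the 10 windows in any of the 4 libraries. Islands were called in 21.2% of all 10 kb windows in at least 1 library, but in 2.08% of the windows tested for H3K9ac. The nearest island of all lay 5225 bp before the start of EGFR in untreated replicate 1, just outside the window, and in the other 3 libraries the nearest one to EGFR was 342 to 369 kb away. At CCNA2 treated replicate 1 had an island 8.91 kb from the start, and in the other libraries the nearest was 209 to 433 kb away. PLK1 lay farthest from the mark, at 8823 to 8844 kb.

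Around 6 of the 10 starts islands were called within 1 Mb centred on the start, and around MYC, CCND1, E2F1 and PLK1 in no library. The share of all 1 Mb windows with islands was not computed, so these counts have no background. CDK1 had 15.8% and 11% of its megabase covered in treated and 7.6% and 14.9% in untreated cells. CCNA2 had 20.6% and 2.45% in treated and 0.55% and 3.95% in untreated cells, a difference of 9.25 percentage points that treated replicate 1 alone carried: the treated replicates were farther apart than that. ETS1 was the one start at which both treated libraries, at 0% and 3.25%, lay below both untreated libraries, at 5.2% and 8.1%. That order was found in 12.5% of all 1 Mb windows tested and the opposite one in 13.4%, so 1 of 6 is near the background. Limma called 0 of the 6 higher or lower, with adjusted p = 0.95 for ETS1 and for CCNA2, and 0 of the 6 had an unadjusted p under 0.05. Over all 1741 windows of 1 Mb with islands it called 0% in each direction, with 48 at an unadjusted p under 0.05. Without treated replicate 2 it called 118 higher.

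**Figure D5:**
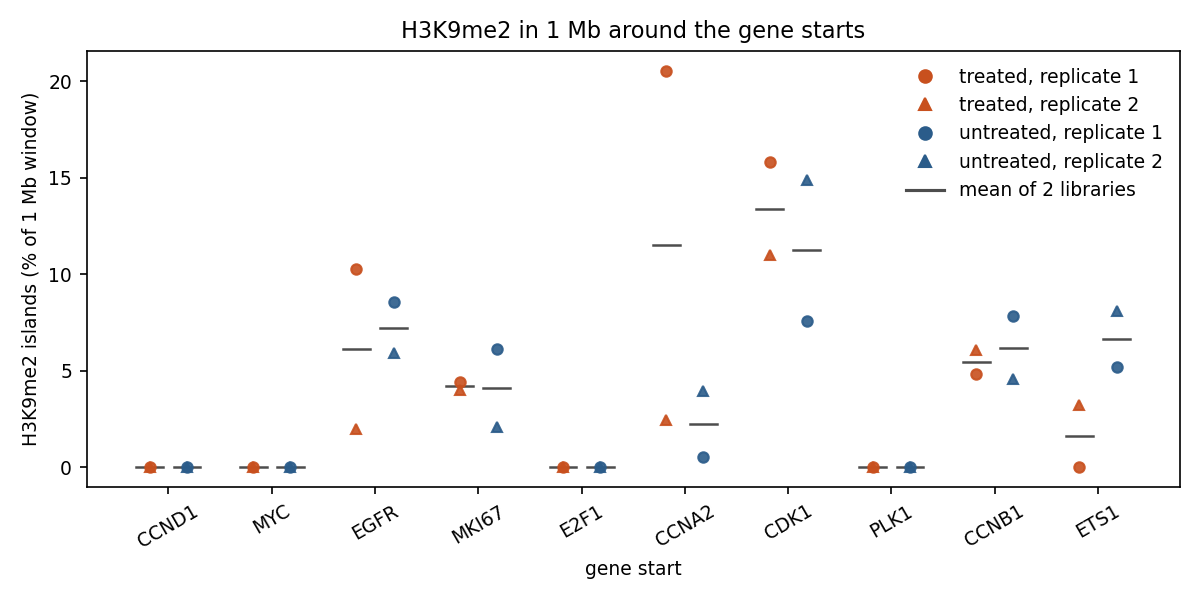
Share of the 1 Mb centred on each gene start that lies in H3K9me2 islands (%), 1 point per library, treated in orange left of untreated in blue, with lines at the means. MYC, CCND1, E2F1 and PLK1 are at 0 in all libraries, and CCNA2 stands high in treated replicate 1 alone.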

How the data were processed

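H3K9ac and H3K9me2 were mapped by chromatin immunoprecipitation and sequencing in treated and untreated cells. Per the submitters' processing notes the tools included MACS2 and SICER for calling, BWA 0.7.5 for alignment, Trimmomatic 0.32 and Picard, on hg19. Their settings are not stated in the labels, and the inputs were not analysed here. The authors deposited peaks or islands of single libraries with a score per interval, which was used only to rank or filter within a list. They also deposited 1 reproducible H3K9ac set per condition, whose deposited value, −log10 of an IDR (irreproducible discovery rate), starts at that of a rate of 0.05. End positions of H3K9me2 islands were taken as included in the island.

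The covered share of each window was computed in Python 3.11.15 with pandas 2.3.3. The 10 member windows replaced the grid windows of 10 kb that they overlapped on 23 chromosomes, and windows with a mean share of at least 5% over the 4 H3K9ac libraries were tested. H3K9me2 was tested in windows of 1 Mb not at 0 in all libraries. Limma 3.58.1 in R 4.3.3 was fitted with a trend to the arcsine square root of the share, treated against untreated, and was tested on simulated data. All 10 members are named. The members and lists were chosen with earlier results of these data known. Gene starts other than the 10 were not used, so planned lists of further genes and cell type markers were not run. Both conditions use replicate numbers 1 and 2, with nothing in the labels on a common batch or day. Without separate depths no interval for counting error could be given.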

Additional observations from a re-analysis of the deposited data

How the results depend on the processing

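Limma called 1 of the 9 tested starts higher in H3K9ac. It called 0 without the window filter, 0 after quantile normalization and 0 with 2 kb either side. With the other windows centred on shared reproducible regions it called 3. The count was 2 without the arcsine step, 3 with equal numbers of top peaks and 1 with the 20000 top peaks. Leaving out 1 library gave 0 to 2, with the lone library left assumed to vary like the others. With the replicate block it was 6, and nothing in the labels ties libraries of the same number together. Deviations of same-numbered libraries correlated at r = -0.058 over 17328 windows, with 2 pairs. That r does not see an offset common to all windows, so it cannot decide whether the block is apt. Replicate 1 covered more than replicate 2 in both conditions. The window medians were 2188 and 1661 bp in treated and 1235 and 796 bp in untreated cells. Chosen after seeing the data, a crossed replicate block gave 0 and joining gaps of up to 500 bp gave 0. None was called lower in any of these. The windows tested numbered 17328, but 130052 without the filter, 11388 on shared reproducible regions and 30866 with 2 kb. They numbered 16476 with equal top peaks, 13983 with the 20000 top peaks and 18718 with gaps joined. Without the arcsine step 4213 of 17328 were called higher, and on shared reproducible regions 3823 of 11388. Over all windows the calls higher numbered 3305, against 736 without the filter, 208 after quantile normalization, 9869 with the block, 321 with the crossed block, 6067 with equal top peaks, 1835 with the 20000 top peaks, 0 with 2 kb, 0 with gaps joined and 327 to 6912 with 1 library left out.

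Starts with treated libraries below untreated ones numbered 0, and 0 to 1 with 1 library left out. Requiring peaks of both libraries over the start left 2 untreated starts. H3K9me2 within 50 kb either side was called at 3 starts. These were EGFR in untreated replicate 1 alone, CCNA2 in treated replicate 1 alone and CDK1 in all but untreated replicate 1. The share of all windows of that width with an island was not computed, so the count has no background. Differences that turned after quantile normalization were -0.15 for MYC, -0.0133 for CCND1, -0.0533 for E2F1, -0.0202 for CCNB1 and -0.0339 for MKI67. With 1 library left out E2F1 ran from -0.0313 to 0.213. For H3K9me2, CCNB1 was 0.0836 with higher-scoring islands, and with 1 library left out EGFR ran from -0.129 to 0.0553, CDK1 from -0.0229 to 0.0941, CCNB1 from -0.0491 to 0.0199 and MKI67 from -0.0442 to 0.0609. The cause of these shifts was not tested. The number of reads behind the lists is unknown, so what depth limits could not be set.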
